A study of Rattus norvegicus with 8 samples.

Results

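Cytosolic ribosomal proteins are the protein parts of the cytosolic ribosome, which translates nuclear mRNAs in every cell. The genes described here were chosen by symbol: Rpl or Rps followed by a number and optional letters, or Rplp0 to Rplp2, without the Rps6k kinases and without symbols marked as pseudogenes. The array named 56 such genes, 35 of the large and 21 of the small subunit, out of 17245 genes with a probe set of their own. A further 22 RefSeq symbols that the same rule would take had no probe set naming them alone and were not analysed here.

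Whole kidneys were compared at 4 weeks of age in HSRA rats, a model of unilateral renal agenesis bred from heterogeneous stock. HSRA-S animals had a congenital solitary kidney, and HSRA-C animals of the same line had both kidneys and served as the control. Each group held 4 samples labelled as biological replicates, with 1 Affymetrix Rat Gene 1.1 ST array for each. The labels name no agent, sex or litter. The comparison addresses how mRNA levels in a kidney that developed alone differ from those in a kidney of an animal with both.

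Each ribosome holds a single copy of nearly all of these proteins, and cells make them in matched amounts. Their mRNAs are very abundant, and most begin with a run of pyrimidines at the cap, the terminal oligopyrimidine tract, through which mTOR signalling controls their translation more than their mRNA level. Kidney mass that grows after loss of the other kidney is known for raised ribosome production and mTOR signalling in tubule cells. An array of total RNA reads mRNA levels and not translation. The rat genome carries many processed copies of these genes, and probe sets for such copies are often annotated to the parent gene. The signal of a member can therefore include transcripts of near-identical copies, and single loci could not be told apart.

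The start regions of some members show the shared feature of the family. The windows below hold 50 bases before and 20 bases from the annotated start, from RefSeq on assembly GRCr8, read 5′ to 3′ on the strand of the gene, with runs of at least 7 pyrimidines in capitals. They are given for the 4 genes with an unadjusted p under 0.05 and for 3 of the higher genes described below.
Rpl12 (chr3:36661890-36661959, plus strand): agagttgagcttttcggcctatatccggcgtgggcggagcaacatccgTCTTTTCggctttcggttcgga
Rps24 (chr16:96467-96536, plus strand): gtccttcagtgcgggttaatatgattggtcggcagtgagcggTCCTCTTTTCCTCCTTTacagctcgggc
Rpl31 (chr9:49143061-49143130, plus strand): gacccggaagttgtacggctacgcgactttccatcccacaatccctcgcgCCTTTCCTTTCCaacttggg
Rpl39 (chrX:121195877-121195946, minus strand): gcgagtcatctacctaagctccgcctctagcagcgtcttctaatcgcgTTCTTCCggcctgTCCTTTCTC
Rps3a (chr2:173827023-173827092, minus strand): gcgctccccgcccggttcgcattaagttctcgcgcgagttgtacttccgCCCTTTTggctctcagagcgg
Rps9 (chr1:74430418-74430487, minus strand): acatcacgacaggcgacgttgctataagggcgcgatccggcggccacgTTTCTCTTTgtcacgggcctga
Rpl41 (chr7:1563478-1563547, minus strand): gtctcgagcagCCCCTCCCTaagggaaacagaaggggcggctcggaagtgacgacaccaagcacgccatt
In 6 of these 7 windows a run lies at or beside the start, whereas the run of Rpl41 lies upstream of it. A start region was found for 49 of the 56 members. In 44 of the 49 (89.8%) such a run on the gene's strand lay at least partly within 20 bases of the start, against 30.1% of all 33469 start regions. The runs of Rps19, Rps16 and Rpl36a reached into this stretch only at its downstream edge. The letters CTTTC, searched on the gene's strand within 20 bases of the start, were found in 46.9% of the members' regions and 4.97% of all. The letters CCGGAA, the core of an ETS factor motif, were found on either strand of the 300-base regions in 44.9% of members and 15.0% of all. The runs were shared by genes on both sides of the comparison, lower (Rpl12, Rps24, Rpl31 and Rpl39) and higher (Rps3a and Rps9).

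Median intensities of the 8 arrays ran from 30.8 to 32.3, and pairs of arrays had correlations of 0.987 to 0.995 over all probe sets. HSRA-C replicates 3 and 4 and, in the other direction, HSRA-S replicate 4 stood apart in the kidney's regional makeup. The mean of 11 proximal tubule markers minus the mean of 8 collecting duct markers was 1.66 and 1.48 in HSRA-C replicates 3 and 4. It was 3.30 in HSRA-S replicate 4 and 2.24 to 2.54 in the other 5 samples. Results on the members are therefore also given without HSRA-C replicates 3 and 4, a setting that keeps HSRA-S replicate 4. In whole tissue, fewer cells of a type and less RNA per cell cannot be told apart.

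Ribosomal protein mRNAs were at nearly the same level in solitary and control kidneys. Of the 55 members bright enough to be tested, 0 passed limma at an adjusted p under 0.05, as did 0% of all 13796 genes tested, and the smallest adjusted p of a member was 0.369. The log2 differences, HSRA-S minus HSRA-C, ran from -0.17 for Rpl12 to 0.19 for Rpl41, at most 1.14-fold. They lay within 0.05 of no difference in 26 members. Only 13 members were beyond 0.1, while 40.3% of all genes tested were. The members were also brighter, with a mean log2 value of 9.32 in HSRA-S against 6.31 over all genes tested. Genes of like brightness were not compared.

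**Figure D1:**
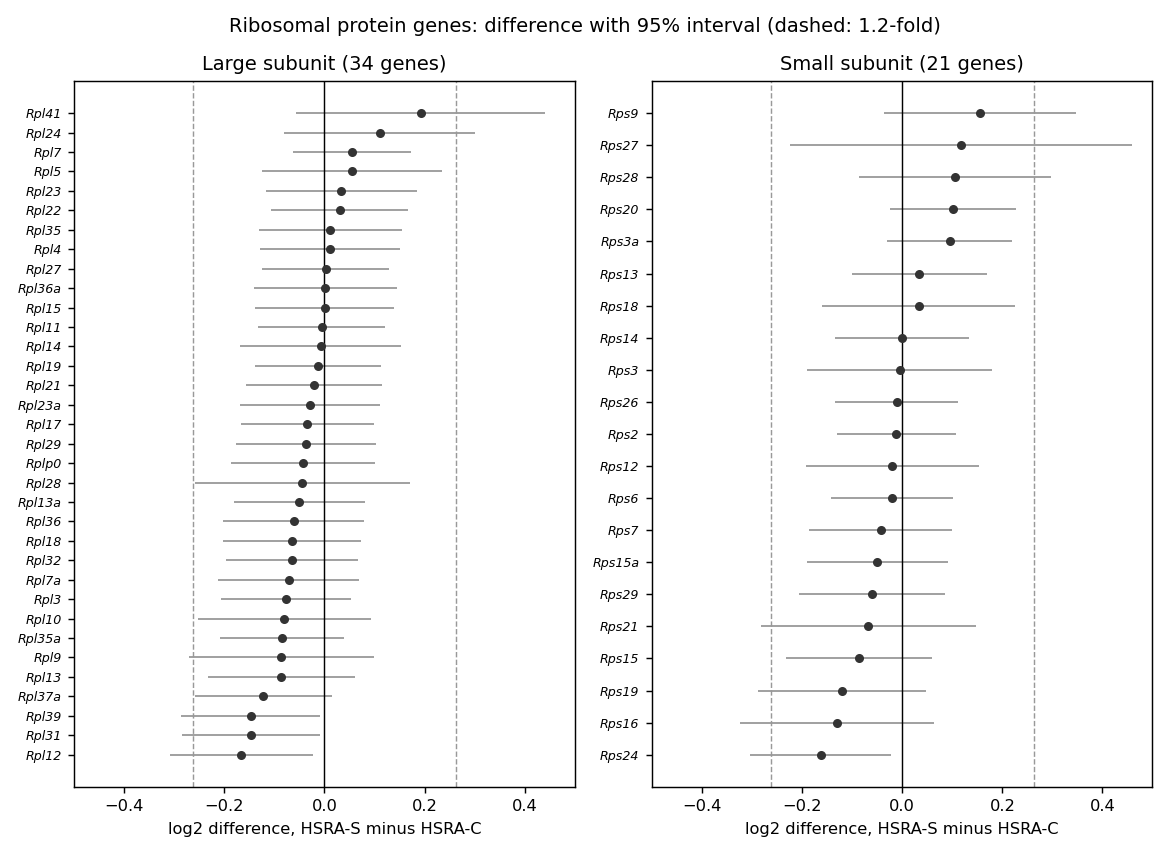
Log2 difference, HSRA-S minus HSRA-C, for each tested ribosomal protein gene (points) with its 95% interval (bars), 34 genes of the large and 21 of the small subunit; dashed lines mark 1.2-fold. The points lie between -0.17 and 0.19, and 42 of the 55 intervals lie inside the dashed lines.

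The direction leaned low. In HSRA-S 18 members were higher and 37 lower, with a median difference of -0.02, against 55.5% of all genes higher and a median of 0.02 over them. An unadjusted p under 0.05 was reached by 4 members, 4 lower and 0 higher, where 12.1% of all genes tested did, 4.69% lower and 7.36% higher. The members' share, 4 of 55, was no larger than the background over both directions and near that of lower genes. The groups did not overlap in 5 members, Rpl12, Rps24, Rpl39 and Rpl35a lower and Rps3a higher, where 6.29% of all genes did not overlap, 2.17% lower and 4.12% higher. Without HSRA-C replicates 3 and 4 the lean was gone: 31 members were higher and 24 lower, and the median was 0.01. In that setting 0 members had an unadjusted p under 0.05, against 4.85% of all genes. Leaving out HSRA-C replicate 3 alone gave 27 higher and 28 lower. Leaving out HSRA-C replicate 4 alone kept the lean, with 18 higher and 37 lower, as did leaving out HSRA-S replicate 4, with 19 and 36.

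The estimates were narrow enough to bound the change of most members. The 95% interval of the difference lay inside 1.2-fold in either direction for 42 of 55 members, against 47.2% of all genes tested, with the bound chosen after the values were seen. The widest intervals were those of Rps27 (-0.22 to 0.46), Rpl41 (-0.06 to 0.44), Rps21 (-0.28 to 0.15) and Rpl28 (-0.26 to 0.17). The median SD within a group was 0.069 over the members and 0.118 over all genes, which were dimmer on average.

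The large subunit carries the peptidyl transferase centre and the exit tunnel for the new protein chain. Of its 34 tested genes 11 were higher and 23 lower, with a median of -0.04. Rpl12, a protein at the base of the stalk where elongation factors bind, had the smallest p of all members. Its log2 values were 9.67, 9.80, 9.78 and 9.80 in HSRA-S replicates 1 to 4 and 9.89, 9.85, 10.04 and 9.94 in HSRA-C. All solitary kidneys were below all controls, with replicate 1 of HSRA-S lowest and replicate 3 of HSRA-C highest. The difference was -0.17 (SE 0.064), 1.12-fold lower, with an adjusted p of 0.369. It was -0.11 without HSRA-C replicates 3 and 4.

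Rpl39, a very small protein that lines the exit tunnel, was measured at 10.66, 10.78, 10.78 and 10.65 in HSRA-S and at 10.82, 10.83, 10.95 and 10.85 in HSRA-C. The groups did not overlap, though the gap between them was narrow. The difference was -0.15 (SE 0.062, adjusted p 0.391). Its 7 probe sets all read between -0.15 and -0.13, but only 4 of the 7 carried values of their own, the others being identical copies.

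Rpl31, which sits at the mouth of the exit tunnel, read 10.77, 10.73, 10.86 and 10.84 in HSRA-S and 10.94, 10.86, 11.03 and 10.96 in HSRA-C. The groups met at 10.86. The difference was -0.15 (SE 0.062, adjusted p 0.391). Of its 4 probe sets, 3 were lower and 1 was higher, at 0.08. Without HSRA-C replicates 3 and 4 the differences of Rpl31 and Rpl39 were -0.10 and -0.11.

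Rpl37a, a zinc-binding protein, and Rpl35a, which like several members is mutated in Diamond-Blackfan anaemia, were lower by smaller amounts. Their differences were -0.12 (SE 0.061) and -0.08 (SE 0.055), with adjusted p-values of 0.452 and 0.564. Rpl35a had 11 probe sets, 10 with values of their own, all between -0.13 and -0.06, and its groups did not overlap.

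On the higher side of the large subunit stood Rpl41, the shortest ribosomal protein. Its values were 11.34, 11.01, 10.94 and 10.78 in HSRA-S and 10.87, 10.85, 10.90 and 10.68 in HSRA-C. HSRA-S replicate 1 was far above the rest, replicates 2 and 3 were just above all controls, and replicate 4 lay among them. The difference of 0.19 (SE 0.11, adjusted p 0.512) became 0.08 without HSRA-S replicate 1. Rpl24, which forms a bridge to the small subunit, was higher by 0.11 (SE 0.086) on its brightest probe set and at -0.01 on the other, and these probe sets correlated at -0.13 over the 8 arrays. The brightest was at 0.06 without HSRA-S replicate 1 and 0.18 without HSRA-C replicate 4. Rpl7 was higher by 0.06 (SE 0.053, adjusted p 0.703).

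The stalk protein Rplp0, the anchor for the acidic P proteins, had a mean of 9.92 ± 0.071 in solitary kidneys and 9.97 ± 0.075 in controls (SD, n = 4 each). Rpl3, which helps shape the peptidyl transferase centre, was at -0.08 (SE 0.058, adjusted p 0.621). Rpl3l, its paralog of heart and skeletal muscle, was the dimmest member and lay under the 3.63 on the log2 scale that a gene's mean had to exceed, so it was not tested. It read 3.27, 3.72, 3.43 and 3.54 in HSRA-S and 3.78, 3.59, 3.54 and 3.69 in HSRA-C, and these ranges overlapped.

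Rpl5 and Rpl11 form with the 5S rRNA a particle that, when ribosome assembly fails, binds Mdm2 and stabilises p53. Rpl11 averaged 10.64 ± 0.012 in solitary kidneys and 10.65 ± 0.068 in controls (SD, n = 4 each), a difference of -0.01 with an interval from -0.13 to 0.12. Rpl5 was at 0.05 (interval -0.12 to 0.23). Mdm2 itself was higher by 0.15 (SE 0.074, adjusted p 0.450), and the cell cycle inhibitor Cdkn1a by 0.41 (SE 0.23, adjusted p 0.499). Of the 8 tested genes of a p53 response list, 5 were higher and 3 lower, 1 had an unadjusted p under 0.05 (Ccng1, higher by 0.21), where 12.1% of all genes did, and 0 passed after adjustment.

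The small subunit reads the mRNA. Of its 21 tested genes 7 were higher and 14 lower, with a median of -0.01. Rps24, another gene of Diamond-Blackfan anaemia, read 7.27, 7.25, 7.45 and 7.32 in HSRA-S and 7.45, 7.45, 7.52 and 7.51 in HSRA-C. The groups did not overlap, but HSRA-S replicate 3 came within rounding of the lowest controls. The difference was -0.16 (SE 0.063, 1.12-fold lower, adjusted p 0.373), and -0.06 on the other probe set of the gene. Rps19, the gene most often mutated in that anaemia, was at -0.12 (SE 0.075, adjusted p 0.544), with all 9 probe sets between -0.19 and -0.08. Rps16 was at -0.13 (SE 0.087) and at -0.08 without HSRA-C replicate 3, -0.07 without HSRA-S replicate 1 and -0.02 without HSRA-C replicates 3 and 4.

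Rps20, a protein of the head of the subunit, was higher in HSRA-S. Its values were 11.60, 11.53, 11.52 and 11.58 against 11.42, 11.42, 11.53 and 11.46 in HSRA-C. HSRA-C replicate 3 lay within the range of the solitary kidneys and the other controls below it. The difference was 0.10 (SE 0.056, adjusted p 0.491), and all 11 probe sets of the gene read between 0.08 and 0.12. Of these 11, 10 carried values of their own. Probe sets of a gene share arrays and near-identical sequence and are not independent measurements.

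Rps3a read 9.87, 9.73, 9.79 and 9.78 in HSRA-S and 9.72, 9.71, 9.66 and 9.69 in HSRA-C, so that the lowest solitary kidney was just above the highest control. Its difference was 0.10 (SE 0.056, adjusted p 0.517). Rps9, which lines the mRNA entry channel, read 8.17, 8.28, 8.11 and 8.40 against 8.12, 7.90, 8.14 and 8.19. The groups overlapped, with HSRA-S replicate 4 highest and HSRA-C replicate 2 lowest. Its difference of 0.16 (SE 0.086, adjusted p 0.489) was 0.09 without HSRA-C replicate 2, 0.10 without HSRA-S replicate 4 and 0.23 without HSRA-C replicates 3 and 4.

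Rps28 was higher by 0.11 (SE 0.086). The difference was 0.02 without the lowest control, HSRA-C replicate 2 at 10.21, and 0.22 without HSRA-C replicates 3 and 4. Rps27, a zinc-finger protein read here by a dim probe set, varied most: 4.68 to 5.05 in HSRA-S and 4.38 to 5.12 in HSRA-C. Rps6, whose phosphorylation by S6 kinase is the usual readout of mTOR activity, was at 10.93 ± 0.023 and 10.95 ± 0.050 (SD, n = 4 each), and its interval of -0.14 to 0.10 covers the mRNA level and says nothing of phosphorylation.

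**Figure D2:**
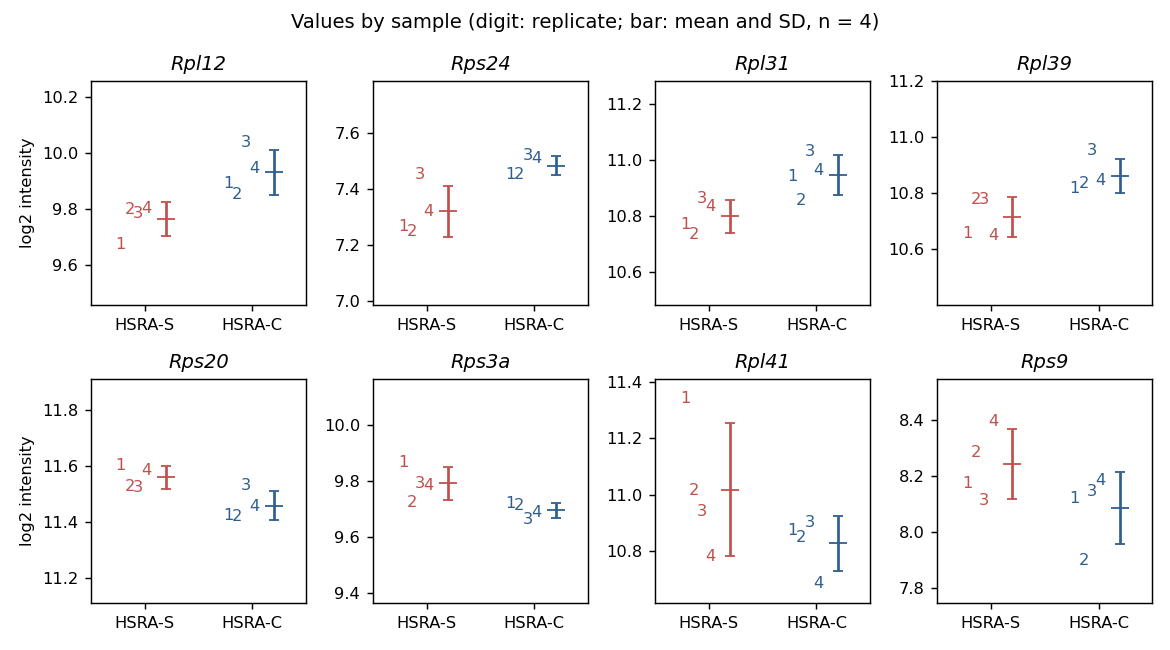
Log2 intensity of 8 ribosomal protein genes in each sample; digits are replicate numbers, and bars give mean and SD of 4 samples, with every panel spanning 0.8 log2 units. Rpl12, Rps24 and Rpl39 are lower in all HSRA-S samples than in all HSRA-C samples and Rps3a higher, by narrow gaps, while HSRA-S replicate 1 stands high for Rpl41.

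Several members serve as reference genes in PCR work, and their stability was examined as a set picked after the values were seen. Rplp0 was at -0.04 (interval -0.19 to 0.10), Rpl13a at -0.05 (-0.18 to 0.08), Rpl32 at -0.06 (-0.20 to 0.07), Rpl19 at -0.01 (-0.14 to 0.11) and Rps18 at 0.03 (-0.16 to 0.23). The control values of Rps18 alone ran from 9.57 to 9.97, and its difference was 0.10 without HSRA-C replicate 3 and 0.17 without replicates 3 and 4. Without these, Rplp0 was at 0.02, Rpl13a at -0.04, Rpl32 at -0.0048 and Rpl19 at 0.01. Of the brightest members, Rps29 averaged 12.11 ± 0.055 in solitary and 12.17 ± 0.094 in control kidneys, and Rpl10 10.99 ± 0.12 and 11.07 ± 0.093 (SD, n = 4 each). Rpl15 was among the dimmest and had a difference of 0.00 (SE 0.062). Signals of different probe sets do not rank transcript amounts. The 27 members that the naming rule did not take, some of which appear above, had differences from -0.09 to 0.05, 8 higher and 19 lower.

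The mean over the members was spread more widely among control kidneys than among solitary ones. This mean log2 value was 9.31 to 9.34 in the 4 HSRA-S samples and 9.27, 9.35, 9.35 and 9.41 in the controls, so the solitary kidneys lay inside the range of the controls. HSRA-C replicate 3 held the highest value of 29 of the 55 members, and HSRA-C replicate 2 the lowest value of 18. The SD was larger in HSRA-C than in HSRA-S in 38 of 55 members, against 47.4% of all genes. The mean of the large subunit genes minus that of the small subunit genes averaged 0.50 ± 0.017 in solitary and 0.52 ± 0.024 in control kidneys (SD, n = 4 each), with overlapping ranges. Pairs of members correlated over the 8 arrays at a median of 0.24. These correlations share arrays and normalisation and describe these samples only.

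**Figure D3:**
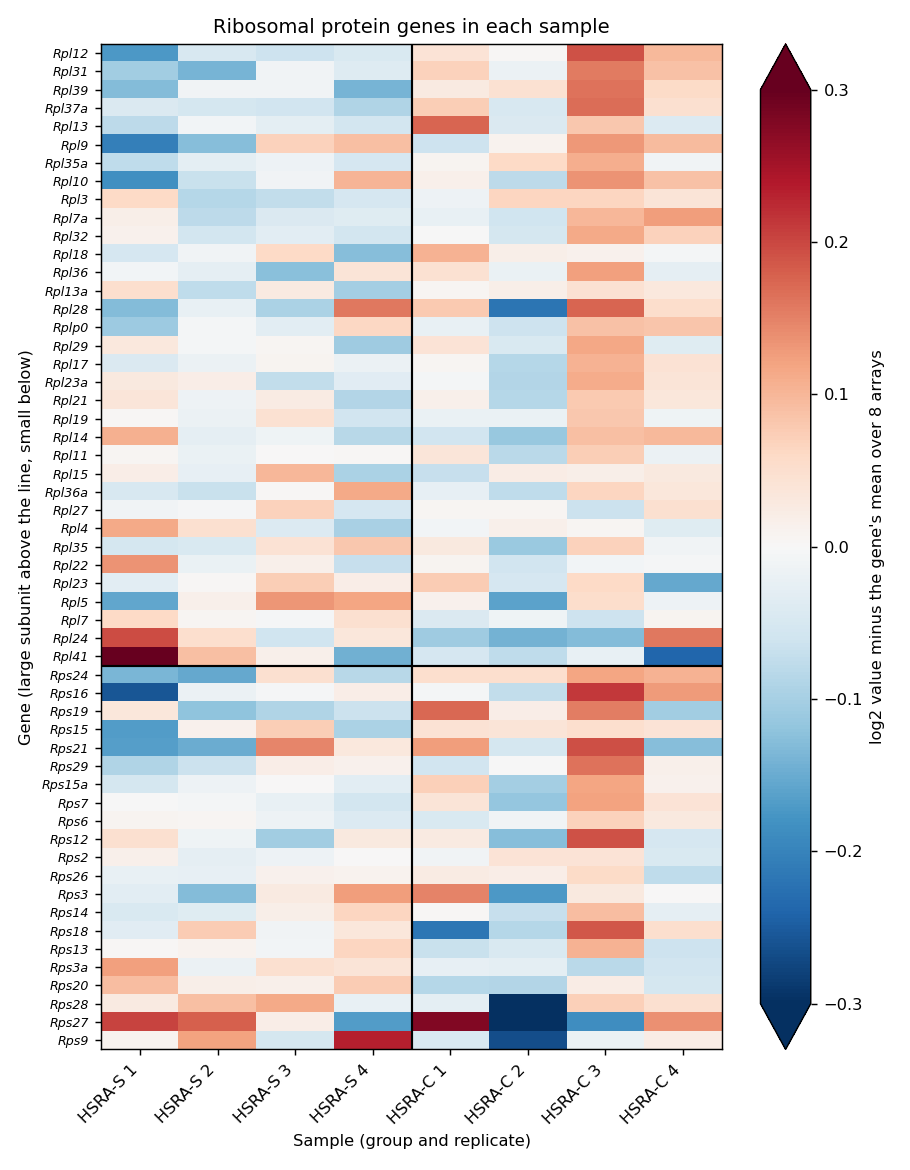
Log2 value minus the gene's mean over 8 arrays for each tested ribosomal protein gene (rows; large subunit above the line, small below, ordered by difference) and each sample (columns). HSRA-C replicate 3 is the most uniformly high column, highest in 29 of 55 genes, and HSRA-C replicate 2 is lowest in 18.

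The mean of the collecting duct markers was 8.60 in HSRA-C replicate 3 and 8.75 in HSRA-C replicate 4. The mean over the ribosomal protein genes was 9.41 in replicate 3, the highest, and 9.35 in replicate 4. Replicate 4 held the highest value of 1 member only, but 33 of the 55 members were above their own mean in it. HSRA-C replicates 1 and 2 had collecting duct means of 7.85 and 8.11 and ribosomal protein means of 9.35 and 9.27. In HSRA-S the collecting duct mean was 7.41 to 8.16. Of the cell cycle markers 5 of 6 were tested, and all 5 were higher in HSRA-S at an unadjusted p under 0.05, where 7.36% of all genes were. After adjustment 0 passed, and the list means were 6.11 to 6.82 against 5.65 to 6.57. Leukocyte markers, 8 of 10 tested and 8 higher, averaged 6.06 to 6.53 in solitary kidneys and 5.85 to 6.20 in controls. Collecting duct markers, 8 of 9 tested, were 0 higher and 8 lower. No marker was at 0 on the intensity scale. Their part in the result was not tested. With the proximal tubule minus collecting duct value as a covariate, 21 members were higher and 34 lower, with 0 at an unadjusted p under 0.05. Of all 13796 genes tested, 57.9% were higher with the covariate and 55.5% without it. The number of them at an unadjusted p under 0.05 in limma was 1164 with it and 1663 without it.

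The genes that followed the member mean most closely over the 8 samples, other than members, were Kcnd3 (Pearson's r 0.987), Mchr1 (0.982), Entpd2 (0.947), Atp13a1 (0.944) and Itpkc (0.941). They are a potassium channel, a melanin-concentrating hormone receptor, an ectonucleotidase, a membrane transport ATPase and an inositol trisphosphate kinase, and were selected from all genes tested. Kcnd3 read 4.66 to 4.73 in HSRA-S and 4.54, 4.79, 4.82 and 5.01 in HSRA-C, highest again in replicate 3. Among the members, 30 of 55 correlated with the member mean above 0.5 and 6 below 0. That mean includes the member itself, which raises these values.

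Many members were read by several probe sets. The 56 genes had 256 probe sets, of which 69 were higher and 187 lower, and 29 genes had more than 1. In 20 of the 29 all probe sets had the same sign, 14 lower and 6 higher. Rpl21, a large subunit gene with 46 probe sets, ran from -0.06 to 0.02 among them. Rpl7a, with 44, ran from -0.29 to 0.08 around a median of -0.01, while its brightest probe set, the one tested, was at -0.07. Signs differed among the probe sets of Rpl13, Rpl21, Rpl24, Rpl29, Rpl31, Rpl36a, Rpl7a, Rps14 and Rps15a. When the probe sets of a gene were averaged instead of taking the brightest, 1 member had an unadjusted p under 0.05 in place of 4. Of all 13796 genes tested, 1659 did in place of 1663.

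**Figure D4:**
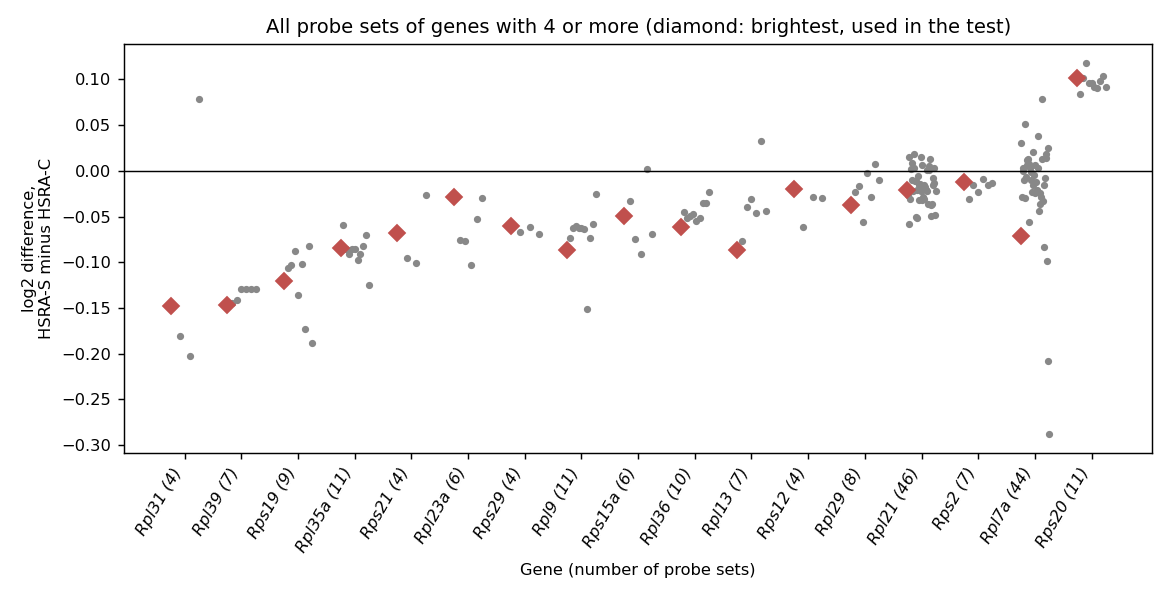
Log2 difference, HSRA-S minus HSRA-C, of every probe set of the 17 genes with 4 or more probe sets (gray points; number of probe sets in brackets), with the brightest, which entered the test, as a diamond. The 11 probe sets of Rps20 read between 0.08 and 0.12, whereas those of Rpl7a spread from -0.29 to 0.08.

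Other parts of the translation machinery were read from lists fixed with earlier results of these data known. Of ribosomal proteins outside the symbol rule 3 were measured, and none was beyond 0.1: Rack1, a scaffold on the small subunit, at -0.05, Rpsa, the laminin receptor homologue, at -0.04, and Rpl7l1, a nucleolar paralog of Rpl7, at 0.06. RNA polymerase I and its factors, which make the rRNA, had 18 tested genes, 12 higher and 6 lower with a median of 0.04. The median was 0.01 to 0.04 with single samples left out, lowest without HSRA-S replicate 1, and 0.02 without HSRA-C replicates 3 and 4. None reached an unadjusted p under 0.05, 0 of 18, and its leading gene was Polr1g at 0.23 (SE 0.15).

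The assembly factors fold and cut the rRNA and load the proteins described above. Of 57 tested, 45 were higher and 12 lower in HSRA-S, with a median of 0.06 (0.03 without HSRA-C replicates 3 and 4), and 6 were higher at an unadjusted p under 0.05, where 7.36% of all genes were. Shq1, an assembly factor of small nucleolar particles, read 4.23 to 4.33 in HSRA-S and 3.92 to 4.06 in HSRA-C (difference 0.29, SE 0.058, adjusted p 0.331). Utp18, of the small subunit processome, was higher by 0.29 (SE 0.087) and Nmd3, the export adaptor of the large subunit, by 0.25 (SE 0.077). The 3 were picked for the smallest p of the list, did not overlap between groups and did not pass after adjustment. In the whole list 5 of 57 did not overlap, 5 higher and 0 lower, where 4.12% and 2.17% of all genes did not.

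Translation factors load the ribosome and move it along the mRNA. Of 30 initiation factors 24 were higher, with a median of 0.07. At an unadjusted p under 0.05 in limma 4 of the 30 were higher and 0 lower, where 7.36% and 4.69% of all genes were. The cap-binding protein Eif4e was at 8.01 to 8.07 in HSRA-S and 7.77 to 7.96 in HSRA-C (difference 0.16, SE 0.060, adjusted p 0.363), and Eif1ax, which helps scan for the start codon, was higher by 0.20 (SE 0.070). Of 16 elongation and termination factors 10 were higher. Eef1b2, the exchange factor for the elongation factor that brings tRNA and itself a gene with a pyrimidine-tract mRNA, read 7.19, 7.44, 7.36 and 7.40 against 7.17, 6.92, 7.14 and 6.91. Its groups did not overlap, and its difference was 0.31 (SE 0.085, adjusted p 0.331). The median of the elongation and termination factors was 0.04, and 0.01 to 0.05 with single samples left out, lowest without HSRA-S replicate 1. That of the initiation factors was 0.04 without the same sample.

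Mitochondrial ribosomal proteins, which are encoded in the nucleus but build the separate ribosome of mitochondria, had 64 tested genes. Of these 51 were higher and 13 lower in HSRA-S with a median of 0.07 (0.05 without HSRA-C replicates 3 and 4), and 15 were higher and 1 lower at an unadjusted p under 0.05, where 7.36% and 4.69% of all genes were. Mrps16 was higher by 0.27 (SE 0.074) and Mrpl27 by 0.22 (SE 0.073), while Mrpl23 was lower by 0.21 (SE 0.071). In none of these lists did a gene pass after adjustment, 0 in each with limma. The difference between these lists and the cytosolic ribosomal proteins was not tested.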

How the data were processed

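Whole-kidney RNA of 8 rats, 4 HSRA-S and 4 HSRA-C, was measured on Rat Gene 1.1 ST arrays, 1 per sample. The values deposited by the authors are probe set intensities summarised by RMA, as the submitters' processing notes name it (per the labels); the program and its release were not stated there. They are on a linear scale from 2.12 to 9259, and log2 was taken before any test, since the deposited intensities are not the log2 values that RMA gives. RMA compresses low intensities and removes array-wide shifts, so a change shared by most genes would not show.

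Of 29214 probe sets, 18644 had 1 gene symbol, 962 several and 9608 none, and 18460 of the first matched RefSeq (GRCr8) by gene ID. Genes were named from probe sets with 1 symbol and read from the brightest. The dimmest 20% of genes were left out, which left 13796. The groups were compared by limma 3.58.1 in R 4.3.3 (lmFit and eBayes, group as the only term), with Benjamini-Hochberg adjustment over these genes, which gives all adjusted p-values. The steps were tested on simulated data. The members and lists were chosen with earlier results of these data known. Named were the 8 members of smallest p in each direction, the 4 brightest and 4 dimmest, Rpl3l and its parent Rpl3, Rpl36a and Rpl39 as parents of restricted paralogs, members whose probe sets differ in sign, up to 3 genes of smallest p per list and the 5 genes most like the member mean. Other members named were chosen after their values were seen. Replicate numbers are shared by the groups, but deviations of same-numbered samples correlated at -0.11 to 0.13, so the numbers were not taken as pairs. Alternatives covered the probe set rule, filter, scaling, a pseudocount, array weights, a nephron covariate, the replicate block and leaving out samples.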

Additional observations from a re-analysis of the deposited data

Results flagged for a closer look

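In 60 groups of 4 values (29 named members and their mean, in each group), 5 had a sample far from the other 3 by Dixon's test, where chance gives about 1 in 20. Rpl12 was low in HSRA-S replicate 1, at 9.67 against 9.78 to 9.80 in the other 3. Rps16 was low in the same sample, at 9.59 against 9.83 to 9.87. Rpl24 was high in HSRA-C replicate 4, at 6.98 against 6.68 to 6.71. Rpl19 was high in HSRA-C replicate 3, at 11.2 on the log2 scale, or 11.16 against 11.06 to 11.07. Rpl15 was low in HSRA-C replicate 1, at 5.26 against 5.35 to 5.36.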

How the results depend on the processing

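The number of ribosomal protein genes past the adjusted threshold was 0 under all 21 alternatives. The number at an unadjusted p under 0.05 in limma, 4 as reported, was 1 with the mean over probe sets, 0 with the nephron covariate and 2 with the replicate block. It was 0 without both HSRA-C replicates 3 and 4. It was 6 after quantile normalization and 5 with array weights, with the pseudocount and with the most variable probe set, all of them lower in HSRA-S. Leaving out single samples gave 0 to 4: 0 for HSRA-C replicate 3 and for HSRA-S replicate 1, 2 for HSRA-C replicate 4 and for HSRA-S replicate 2. Over all 13796 genes tested this number moved as well. It was 1663 as reported, 1659 with the mean over probe sets, 1164 with the nephron covariate and 1586 with the replicate block. It was 669 without both HSRA-C replicates 3 and 4, 1681 after quantile normalization and 2213 with array weights. The pseudocount gave 1743 and the most variable probe set 1651. Single samples left out gave 1010 for HSRA-C replicate 3, 1017 for HSRA-C replicate 4 and 1314 each for HSRA-S replicates 1 and 2. The number of members higher in HSRA-S, 18 as reported, was 31 without both HSRA-C replicates 3 and 4. It was 15 to 27 with single samples left out, the highest of these for HSRA-C replicate 3. It was 14 after quantile normalization, 15 with arrays centred on their median, 16 with array weights and 21 with the nephron covariate. The number of members without overlap, 5 as reported, was 3 with arrays centred on their median and 8 with the most variable probe set. It was 12 without both HSRA-C replicates 3 and 4, where fewer samples separate more easily. With single samples left out it was 5 to 9. The 9 was for HSRA-C replicate 2, and HSRA-C replicate 4 and HSRA-S replicate 3 each gave 8. The share over all genes, 6.29%, was counted in the reported setting only, so these other counts have no background beside them.

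Of the 29 members that the naming rule took, the sign of the log2 difference turned in 8 under at least 1 alternative. Members outside the rule, such as Rpl11, Rplp0 and Rps6, also turned without both HSRA-C replicates 3 and 4. Rpl24 was at -0.013 with the most variable probe set. Rps27 ran from -0.017 to 0.23 with single samples left out, Rpl19 from -0.031 to 0.011, Rpl15 from -0.033 to 0.032, Rpl36a from -0.036 to 0.024, Rpl21 from -0.053 to 0.0047 and Rps14 from -0.024 to 0.030. The nephron covariate gave 0.019 for Rpl19, 0.028 for Rpl21 and -0.011 for Rpl36a. Without both HSRA-C replicates 3 and 4, Rpl19 was at 0.013, Rpl21 at 0.024, Rpl7a at 0.0050 and Rps14 at 0.032. Centred arrays gave -0.011 for Rpl15 and -0.010 for Rpl36a. Rpl36a was also at -0.0278 with array weights, -0.029 with the mean over probe sets, -0.041 with the most variable one and -0.033 after quantile normalization. Rps14 was at 0.00923 with the mean over probe sets and 0.015 with the most variable one. The cause was not tested. The median of the members ran from -0.059 to 0.0086 over the alternatives. The replicate block, under which no adjusted call changed, shares only numbers between the groups.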
